A study of Homo sapiens with 10 samples.

Results

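CXCL9, CXCL10, CXCL11 and CCL5 are 4 of the 23245 genes listed for each comparison of this RNA-seq series, and they encode chemokines that attract T cells. They were selected on FPKM values of these same libraries and taken by gene symbol, so the levels below are a description and carry no test. The series measured total RNA in human cancer cell lines that made PcTF, a fusion of the polycomb chromodomain of CBX8, the mCherry fluorescent protein and the VP64 activation domain, which was built to bind H3K27me3, a histone mark of silenced genes. Of its 10 libraries, 9 were used. PcTF-transfected cells of 3 lines, the osteosarcoma line U-2 OS, the neuroblastoma line SK-N-SH and the leukaemia line K562, received 2 µg of plasmid with Lipofectamine LTX, with 1 library each. They were grown up to 96 h in the case of U-2 OS or SK-N-SH and up to 48 h in that of K562. The mock cells of each line, again 1 library each, received the lipid reagents without plasmid. The doxycycline-inducible lines were derived from U-2 OS and are isogenic. U2OS-PcTF KAH126 had 2 libraries and U2OS-dTF KAH132, whose fusion lacks the histone-binding domain, had 1, all after 1 µg/mL doxycycline for 96 h. The remaining library, labelled U-2 OS transfected with the dTF plasmid, was not analysed here, so PcTF and transfected plasmid DNA cannot be told apart in the transient comparisons. Fluorescence marked only part of the transfected cells and no sorting is described, so fewer cells with a transcript and less of it per cell cannot be told apart.

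CXCL9, CXCL10 and CXCL11 are ligands of CXCR3, a receptor of activated T cells and natural killer cells, and CCL5 (RANTES) acts through receptors that include CCR1 and CCR3. Interferon-gamma is the classical inducer of the CXCR3 ligands. Type I interferon, IRF3 and NF-kB also act on CXCL10, CXCL11 and CCL5 after virus RNA or foreign DNA is sensed in the cell. Cells of connective tissue and tumour cells can make all of these chemokines and need not be immune cells themselves.

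The promoters of the CXCR3 ligands are shown because these genes lie side by side on chromosome 4 and carry different motif matches. RefSeq promoters (GRCh38.p14) were matched for 3 of the 4 genes, and the 250 bases before each annotated start are given 5′ to 3′ on the gene's strand, with motif matches in capitals. Both strands were searched for the core of the interferon-stimulated response element (TTTC, any 2 bases, TTTC), the STAT site GAS (TTCNNNGAA) and the NF-kB site kB (GGG, any 5 bases, CC). The first was in 3.02%, the second in 6.57% and the third in 54.4% of 35116 promoter windows of this length.
CXCL9, chr4:76007510-76007759, minus strand: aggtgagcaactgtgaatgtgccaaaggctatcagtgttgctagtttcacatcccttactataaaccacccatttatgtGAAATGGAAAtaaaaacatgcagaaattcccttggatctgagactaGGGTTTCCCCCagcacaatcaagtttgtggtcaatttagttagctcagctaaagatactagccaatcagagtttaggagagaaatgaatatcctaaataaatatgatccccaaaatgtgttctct
CXCL10, chr4:76023498-76023747, minus strand: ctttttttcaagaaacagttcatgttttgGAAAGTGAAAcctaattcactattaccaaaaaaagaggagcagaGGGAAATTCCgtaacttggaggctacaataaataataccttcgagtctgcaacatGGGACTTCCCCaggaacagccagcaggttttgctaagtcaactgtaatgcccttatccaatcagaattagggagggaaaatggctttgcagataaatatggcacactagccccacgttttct
CXCL11, chr4:76036071-76036320, minus strand: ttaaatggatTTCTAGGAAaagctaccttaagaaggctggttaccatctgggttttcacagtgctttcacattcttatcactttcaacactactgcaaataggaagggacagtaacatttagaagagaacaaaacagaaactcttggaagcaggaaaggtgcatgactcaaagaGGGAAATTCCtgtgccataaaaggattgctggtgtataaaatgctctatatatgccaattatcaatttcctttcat
CXCL10 had 1 match to the response element core, 221 to 212 bases before the start, and CXCL9 had 1 match 171 to 162 bases before the start. CXCL11 had 0 matches to this core and 1 GAS match, 240 to 232 bases before its start. All 3 windows held kB matches: 3 in CXCL10 and 2 in CXCL9, of which the last 2 of each overlapped, and 1 in CXCL11. The same 10 letters, GGGAAATTCC, stood 177 to 168 bases before the CXCL10 start and 76 to 67 bases before the CXCL11 start. These are letter matches and no binding was measured at them here. A site with other letters or spacing, or outside the 250 bases, would be missed, so 0 matches does not show that a site is absent.

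All 4 genes were higher in PcTF-transfected U-2 OS than in mock-transfected U-2 OS, and no other value of the series came near the PcTF-transfected level of CXCL10, CXCL11 or CCL5. CCL5 had 1036 FPKM (fragments scaled to gene length in kilobases and to library depth) in PcTF-transfected U-2 OS, against 14.2 FPKM in mock U-2 OS. That is 73.1-fold higher, or 6.18 on the log2 scale after 0.1 FPKM was added to both values, a step that lowers the difference of weakly expressed genes. With PcTF, CCL5 was the 29th highest of 16049 genes detected, whereas in mock cells it was the 3839th of 16089. CXCL10 had 227 FPKM with PcTF in U-2 OS, against 8.49 FPKM in mock U-2 OS (26.8-fold, log2 difference 4.73). CXCL11 also had 227 FPKM in PcTF-transfected U-2 OS, against 7.47 FPKM in mock U-2 OS (30.3-fold, log2 difference 4.90). These CXCR3 ligands held the 168th and 169th rank among the genes of the PcTF library and the 5445th and 5860th rank in the mock library. CXCL9, the ligand classically tied to interferon-gamma, stayed low, with 2.19 FPKM in PcTF-transfected U-2 OS, against 0.787 FPKM in mock U-2 OS (2.79-fold, log2 difference 1.37).

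**Figure D1:**
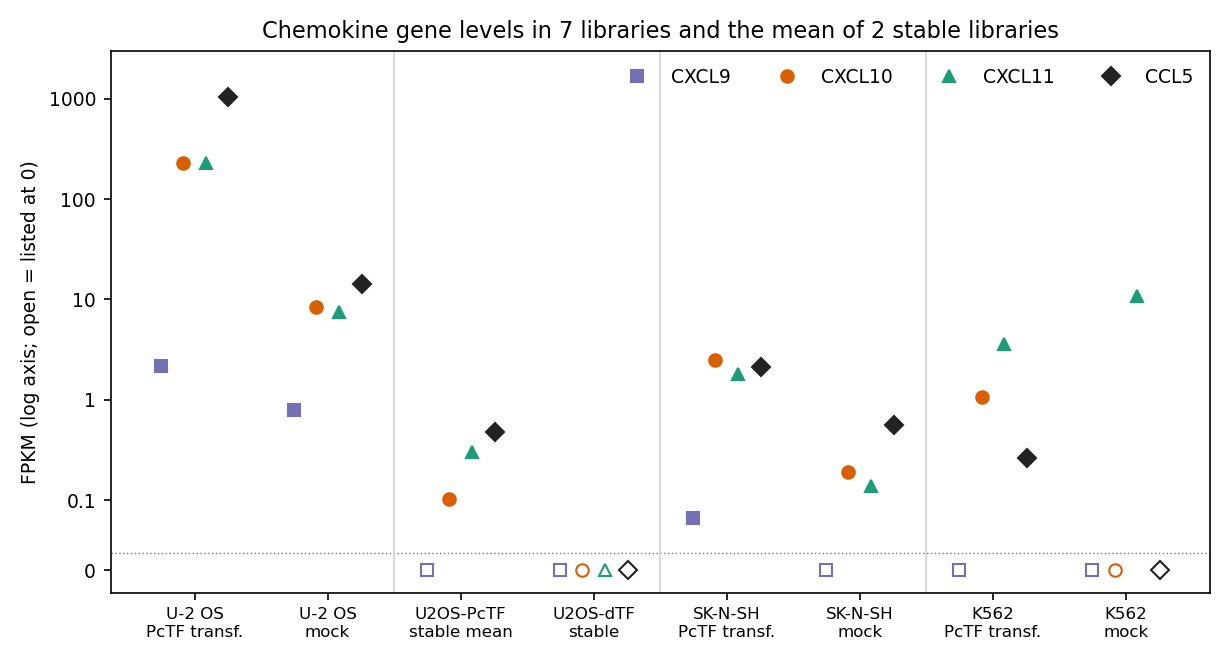
Level of each chemokine gene (FPKM, log axis, with values of 0 drawn as open symbols under the dotted line) in 7 libraries and as a mean over the 2 stable U2OS-PcTF libraries. The highest points are CCL5 at 1036 FPKM and CXCL10 and CXCL11 at 227 FPKM in PcTF-transfected U-2 OS, while all 4 genes are at 0 in U2OS-dTF.

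Of the 12411 genes with 1 FPKM or more in either U-2 OS library, 12% were at least 2-fold higher with PcTF and 5.59% at least 2-fold lower, and all 4 chemokine genes were among the higher ones. They were chosen with this comparison known, so their share is not read against that percentage. The median log2 difference of the 4 was 4.82, beside 0.08 over all genes compared. Counted from the largest increase, CCL5 was 54th, CXCL11 74th, CXCL10 84th and CXCL9 864th. With 1 library per condition there is no replicate check on any of these differences.

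Reads behind these levels could be estimated because low FPKM values were whole multiples of the value of 1 read. CCL5 rested on 4550 reads in PcTF-transfected U-2 OS and 71 reads in mock U-2 OS, a log2 read ratio of 6.19 with an exact 95% interval of 5.85 to 6.55. CXCL10 rested on 986 reads with PcTF and 42 in mock (4.74, interval 4.30 to 5.22). CXCL11 rested on 1358 reads with PcTF and 51 in mock (4.92, interval 4.52 to 5.36). The interval of CCL5 lay above the intervals of CXCL10 and CXCL11, and those of CXCL10 and CXCL11 overlapped. CXCL9 had 22 reads with PcTF and 9 in mock, and its interval of 0.30 to 2.78 lay below the other 3. The intervals cover counting error between libraries only, not the spread between cultures.

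**Figure D2:**
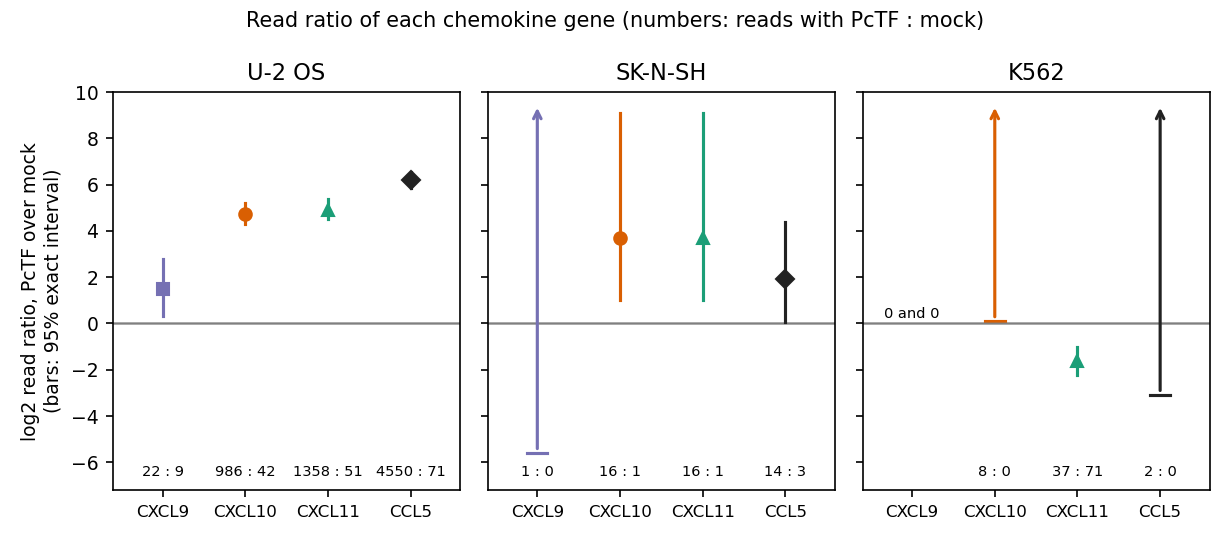
Log2 ratio of estimated reads, PcTF over mock, for each gene in each of the 3 lines, with exact 95% intervals as bars and the reads with PcTF and in mock printed below. Arrows mark ratios with 0 mock reads, drawn from their lower bound. The U-2 OS values run from 1.48 for CXCL9 to 6.19 for CCL5, while CXCL11 in K562 is at -1.60.

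The make-up of the chemokine signal also differed between the U-2 OS libraries. Per length, CCL5 stood at 4.56 times the level of CXCL10 in PcTF-transfected U-2 OS, against 1.67 times in mock U-2 OS. CXCL10 and CXCL11 stood close to each other in both, with a ratio of 1.00 with PcTF and 1.14 in mock. CXCL10 was at 104 times the level of CXCL9 with PcTF, against 10.8 times in mock. Together the 4 genes summed to 1492 FPKM in PcTF-transfected U-2 OS, against 30.9 FPKM in mock U-2 OS.

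In SK-N-SH, CXCL10, CXCL11 and CCL5 were higher with PcTF but at levels near the detection limit. CXCL10 had 2.47 FPKM in PcTF-transfected SK-N-SH and 0.190 FPKM in mock SK-N-SH, which is 16 reads against 1. CXCL11 had 1.79 FPKM with PcTF and 0.138 FPKM in mock, also 16 reads against 1. Both were 13-fold higher, with a log2 read ratio of 3.70 and an interval of 1.01 to 9.09. CCL5 had 2.14 FPKM with PcTF and 0.563 FPKM in mock (3.79-fold). It rested on 14 reads against 3, and its interval of 0.08 to 4.36 nearly reached 0. CXCL9 had 1 read with PcTF (0.0668 FPKM) and 0 in mock, so no difference was detectable at this depth.

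Of 11954 genes compared in SK-N-SH, 5.79% were at least 2-fold higher with PcTF and 2.69% at least 2-fold lower, and 3 chemokine genes, CXCL10, CXCL11 and CCL5, were in the higher part. CXCL9 did not reach 1 FPKM in either library. The median log2 difference of the 4 genes was 2.37, beside 0.10 over all genes compared. CCL5 was at 0.864 times the level of CXCL10 in PcTF-transfected SK-N-SH, against 2.96 times in mock SK-N-SH, where the ratio rests on 3 reads against 1. With PcTF, CCL5 and CXCL10 rested on 14 and 16 reads, so their order in SK-N-SH is not resolved. With PcTF the 4 genes summed to 6.46 FPKM in SK-N-SH, against 0.891 FPKM in mock SK-N-SH.

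In K562 the genes went different ways. CXCL11 was the one chemokine of the 4 with a sizeable level in mock K562, and it was lower in PcTF-transfected K562, with 3.57 FPKM and 37 reads, against 10.9 FPKM and 71 reads in mock. The log2 difference was -1.58, and the interval of the log2 read ratio ran between -2.22 and -1.01. CXCL10 had 1.07 FPKM and 8 reads in PcTF-transfected K562 and was at 0 in mock K562. That level was 1.68 times a floor of 3 reads in mock K562 (0.633 FPKM). The lower 95% bound of the CXCL10 log2 read ratio was 0.11, so it nearly reached 0. CCL5 had 0.263 FPKM and 2 reads with PcTF and 0 in mock, and CXCL9 was at 0 in both, so neither gave a detectable difference.

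Of 11553 genes compared in K562, 28.6% were at least 2-fold higher with PcTF and 11.7% at least 2-fold lower. CXCL10 was among the higher genes and CXCL11 among the lower. The whole K562 comparison was spread more widely than the other transient ones, with a median log2 difference of 0.37 over all genes compared. Of 12 stably expressed reference genes with 1 FPKM or more, 3 were at least 2-fold higher with PcTF and 1 was at least 2-fold lower, and GAPDH stood at 2894 FPKM with PcTF and 428 FPKM in mock. Of these 12 genes, 0 were 2-fold apart in either SK-N-SH or U-2 OS. All-gene shares there were 5.79% higher and 2.69% lower in SK-N-SH, and 12% and 5.59% in U-2 OS. With 12 genes, the reference counts cannot be told apart from the all-gene shares of each line. The part of the wider K562 spread in the values of CXCL10 and CXCL11 was not tested. K562 was also collected at an earlier time than the other lines, and time and line cannot be told apart.

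**Figure D3:**
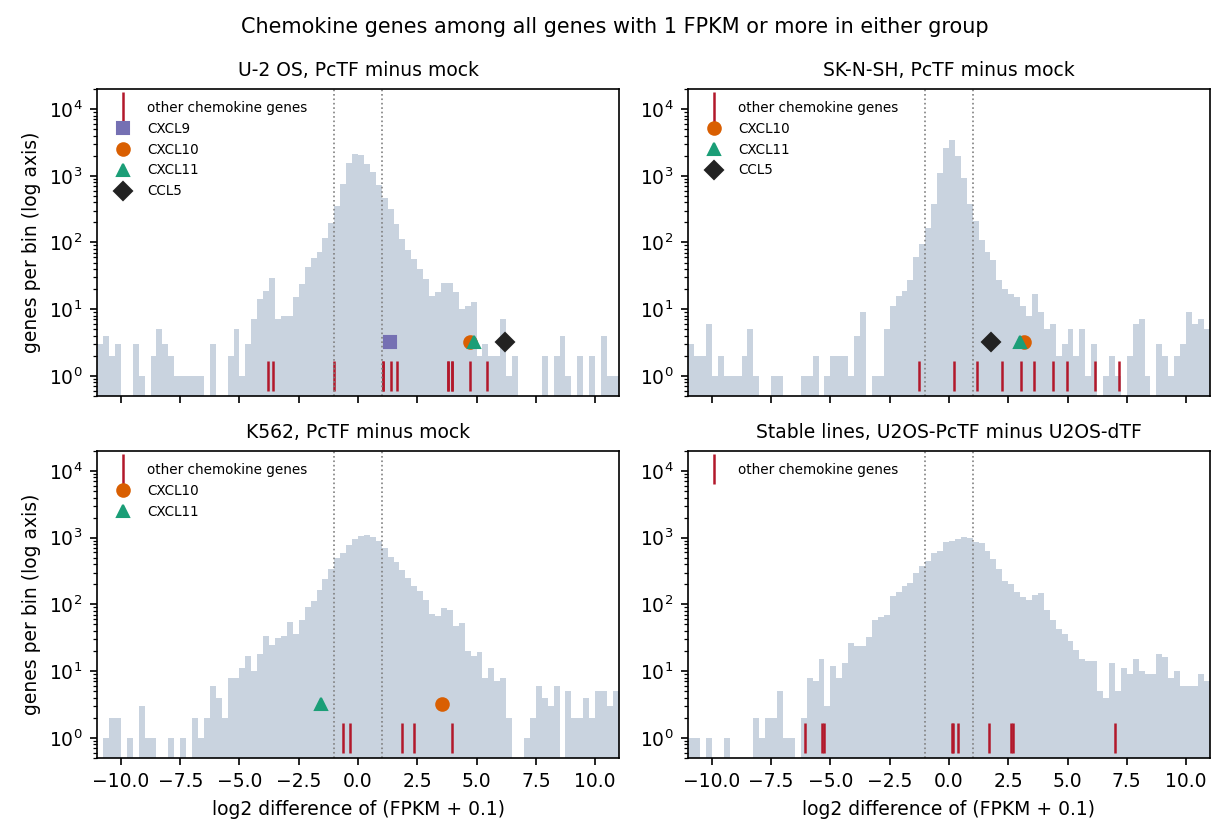
Distribution of the log2 difference of FPKM + 0.1 over all genes with 1 FPKM or more in either group, in 4 comparisons (log axis of genes per bin, dotted lines at 2-fold), with the 4 chemokine genes as symbols and other chemokine genes as red ticks. CCL5 is at 6.18 in U-2 OS, CXCL11 is at -1.58 in K562, and none of the 4 genes reached 1 FPKM in the stable lines.

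The stable lines differed sharply from the transient U-2 OS library. All 4 genes were at 0 in U2OS-dTF, a library of about 5.79e+06 reads, where 3 reads would be worth 0.221 FPKM for CXCL9, 0.511 for CXCL10, 0.370 for CXCL11 and 0.505 for CCL5. The deposited column for U2OS-PcTF was the authors' mean of 3 libraries, and it listed CXCL9 at 0.731, CXCL10 at 75.8, CXCL11 at 75.8 and CCL5 at 346 FPKM. That mean includes the transient PcTF-transfected U-2 OS library. After that library was subtracted, the stable U2OS-PcTF mean over 2 libraries came to 0 for CXCL9, 0.104 FPKM for CXCL10, 0.303 FPKM for CXCL11 and 0.477 FPKM for CCL5. Each of these lay below the 3-read floor of U2OS-dTF, so no fold is given between the stable lines. Of 12920 genes compared, 37% were at least 2-fold higher in U2OS-PcTF and 13.5% at least 2-fold lower, and 0 of the 4 chemokine genes reached 1 FPKM in either group.

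The transient library thus supplied 99.9% of the summed CXCL10, 99.7% of the CXCL11, 99.9% of the CCL5 and 100% of the CXCL9 signal in the 3-library mean. Over the 12525 genes with 1 FPKM or more in that mean, the median share of the transient library was 28.6%. Only 0.327% of them (41 genes) took 99% or more from it, and CXCL10, CXCL11 and CCL5 were among these. CXCL9, whose mean was under 1 FPKM, was not counted. Subtraction was possible because both tables put the transient library on 1 scale, with 325 genes equal to its value over 3 within 0.01% and 10 of 16049 genes more than 1% below it.

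**Figure D4:**
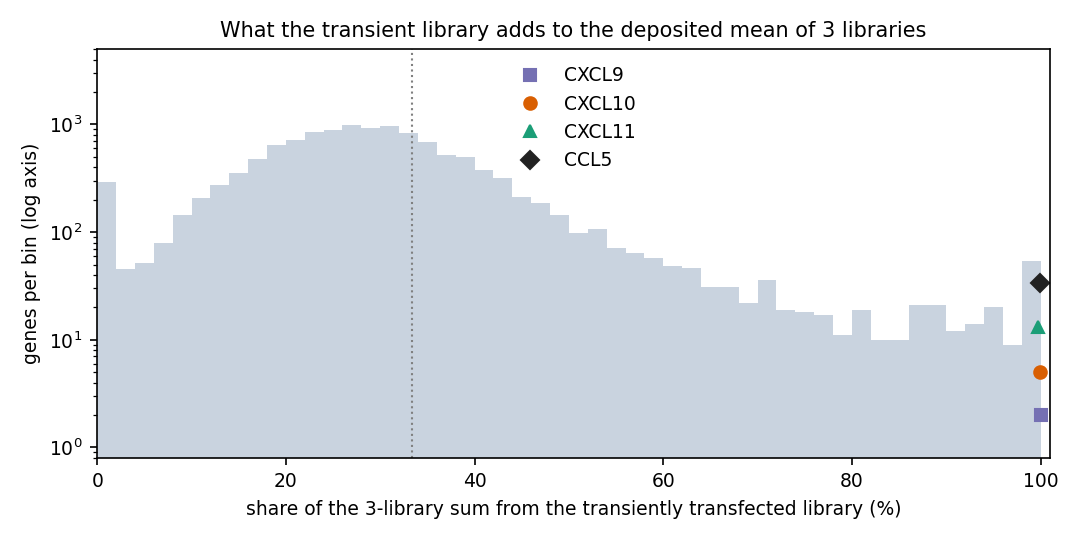
Share of the summed FPKM of 3 libraries that came from the transiently transfected U-2 OS library (percent), over genes with a mean of 1 FPKM or more (log axis of genes per bin), with the 4 chemokine genes as symbols whose height has no meaning. The dotted line marks equal shares, and the symbols sit between 99.7% and 100%, far from the median gene at 28.6%.

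U2OS-dTF also lay below mock U-2 OS, although neither made PcTF. Mock U-2 OS stood 28.1-fold above the 3-read floor of U2OS-dTF for CCL5 and 20.2-fold above it for CXCL11. For CXCL10 it stood 16.6-fold and for CXCL9 3.56-fold above that floor. These folds take the mock level as exact. With counting error in both libraries, the upper 95% bounds of the log2 read ratio, U2OS-dTF over mock, were nearer to 0. They were -4.48 for CCL5, -3.98 for CXCL11, -3.69 for CXCL10 and -1.23 for CXCL9. In this comparison 28.1% of 12660 genes were at least 2-fold higher in U2OS-dTF and 32% at least 2-fold lower, and CXCL10, CXCL11 and CCL5 were in the lower part. These values come from separately normalised tables that were linked only through the transient library. Of the 12 reference genes, 3 were at least 2-fold higher in U2OS-dTF than in mock U-2 OS and 1 was lower. ACTB, the furthest apart of these, had 2288 FPKM in U2OS-dTF against 422 FPKM in mock. The part of such shifts in the chemokine values was not tested. Mock cells had passed through lipid transfection and the stable lines had not, so transfection, line and culture cannot be told apart here. The level of the chemokine genes in mock U-2 OS was above the stable U2OS-PcTF mean as well, for CCL5 at 14.2 FPKM beside 0.477.

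Over all 8 values the order of levels began with PcTF-transfected U-2 OS for every gene. For CXCL10 and CCL5 the next levels were mock U-2 OS and PcTF-transfected SK-N-SH. CXCL11 was different, since mock K562 (10.9 FPKM) came second, before mock U-2 OS (7.47 FPKM) and PcTF-transfected K562 (3.57 FPKM). CXCL9 was at 0 in 5 of the 8 values. Where neighbours in these orders rest on under 10 reads, their order is not resolved.

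By likeness of profile, CXCL10 and CCL5 were each other's nearest gene among 15355 genes. Profiles were compared by the root-mean-square distance of log2(FPKM + 0.1) over the same 8 values, after each gene's mean was removed, and the pair lay 1.13 apart. Next to CXCL10 came TNFSF10 (1.44), which encodes the death ligand TRAIL, the oligoadenylate synthetase gene OAS2 (1.47), RSAD2 (1.57), which encodes the antiviral protein viperin, and the adhesion molecule gene CEACAM1 (1.65). Next to CCL5 after CXCL10 came OAS2 (1.38), IFIT3 (1.80), RSAD2 (1.89) and IFI44L (1.96), all known as interferon-induced genes. OAS2, for example, had 286 FPKM in PcTF-transfected U-2 OS, against 12.8 FPKM in mock U-2 OS.

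CXCL11 had no comparably close neighbour. Its nearest genes were CMPK2 (1.60), which encodes a mitochondrial nucleotide kinase, the Fc receptor gene FCGR2C (1.68), ZG16B (1.74), PDZK1IP1 (1.76) and IL2RG (1.78), which encodes a receptor chain shared by several interleukins. CXCL10 was only the 45th nearest gene to CXCL11, at 2.26, although their U-2 OS levels were alike. In mock K562 CXCL11 was at 10.9 FPKM and CXCL10 at 0. FCGR2C shared the K562 pattern, with 1.55 FPKM in PcTF-transfected K562 and 8.17 FPKM in mock K562. The low profile of CXCL9 lay near SCN10A (0.32), CST11 (0.33), ANKRD22 (0.39), VNN1 (0.41) and SLC17A9 (0.48), genes at 0 or at low levels outside U-2 OS. All these distances share the same libraries and are a description.

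The genes near CXCL10, CXCL11 and CCL5 differed far less than these between the U-2 OS libraries. CXCL9 (deposited hg19 locus chr4:76922622-76928641), CXCL10 and CXCL11 lie on the minus strand of chromosome 4, and each has 4 exons. For CXCL10 and CXCL11 the deposited locus was the wider interval chr4:76932332-77033955, shared with ART3, while the GENCODE transcripts span chr4:76942271-76944650 and chr4:76954835-76957223 of the same build. ART3, an ADP-ribosyltransferase gene, overlaps both on the other strand and had 0.525 FPKM in PcTF-transfected U-2 OS, against 0.307 FPKM in mock U-2 OS. Whether counting used the strand is not given in the sources used here, so reads of ART3 and of these genes could be exchanged. In PcTF-transfected and mock U-2 OS the ART3 level was far below that of CXCL10 and CXCL11. ART3 was above CXCL10 in the stable U2OS-PcTF mean (0.132 against 0.104 FPKM) and in mock K562 (0.320 against 0 FPKM).

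Within 100 kb of the deposited loci, SDAD1 had 24.5 FPKM in PcTF-transfected U-2 OS against 20.7 FPKM in mock (log2 difference 0.24). NUP54, a nuclear pore gene, had 45.5 FPKM with PcTF against 43.4 in mock (0.07), and SCARB2, a lysosomal receptor gene, had 82.8 against 71.5 (0.21). NAAA was at 0.984 FPKM with PcTF and 0.493 in mock, and PPEF2 at 0 and 0.128. The 3 well expressed neighbours were thus close between the libraries, while CXCL10 and CXCL11 each differed by over 4 on the log2 scale.

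Around CCL5 (chr17:34198495-34207377, minus strand, 4 exons) the well expressed genes were close between the libraries too. TAF15, which encodes a TATA-binding protein associated factor, had 24.5 FPKM in PcTF-transfected U-2 OS against 21.5 in mock (0.19), and RDM1 had 5.15 against 3.63 (0.49). C17orf66, the nearest gene in the table, had 1.19 FPKM with PcTF against 0.232 in mock (1.96). MMP28 was at 0 with PcTF and 0.251 in mock, and LYZL6 and the chemokine gene CCL16 were at 0 in both.

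**Figure D5:**
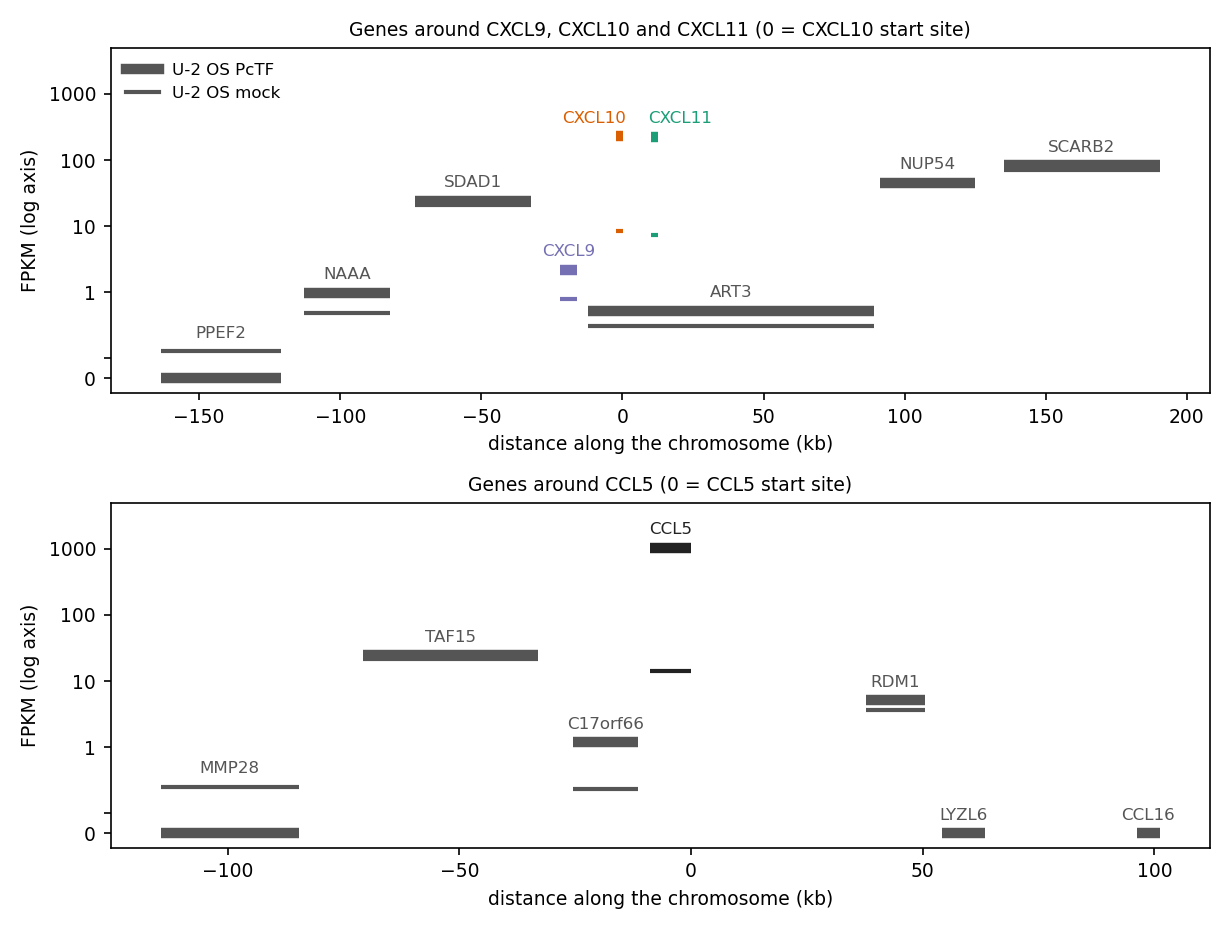
Genes around the CXCL9 to CXCL11 cluster and around CCL5, placed by distance from the CXCL10 or CCL5 start site (kb), with their level in PcTF-transfected U-2 OS (thick bars) and mock U-2 OS (thin bars, hidden where the 2 coincide) on a log axis of FPKM. CXCL10 and CXCL11 stand at 227 FPKM with PcTF, while SDAD1, NUP54 and SCARB2 beside them have nearly equal bars in both libraries.

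Receptors for these chemokines were nearly silent in the cells. CXCR3 was at 0 in every value except 0.0206 FPKM in the stable U2OS-PcTF mean, and CCR3 was at 0 in all 8. CCR1 was above 0 only in the stable U2OS-PcTF mean (0.0572 FPKM) and mock SK-N-SH (0.0778 FPKM). The scavenging receptor gene CXCR7, whose product takes up CXCL11, had 3.32 FPKM in PcTF-transfected U-2 OS, against 5.72 FPKM in mock U-2 OS. DARC was at 0.776 with PcTF and 0.567 in mock, and CCBP2 at 0.169 and 0.223, both scavengers of inflammatory chemokines. DPP4, the protease that trims the amino end of these chemokines, was higher with PcTF, at 5.24 FPKM against 2.44 in mock U-2 OS and at 26.0 FPKM against 7.60 in mock SK-N-SH.

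Interferon ligand genes gave little signal. Of 21 in the tables, 16 were at 0 in all 8 values, among them IFNG. IFNB1, named here after its values were seen, was below 1 FPKM in both U-2 OS libraries. Its level was 0.734 FPKM with PcTF and 0 in mock. No read count is given for this gene, so no difference is read from these values. IFNK, a keratinocyte interferon, had 1.25 FPKM with PcTF and 1.31 in mock. IFNK in U-2 OS was the only one of the 21 with 1 FPKM or more in a PcTF comparison with mock. In SK-N-SH and in K562 0 of them reached that level, so no count of called interferon genes is read.

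Genes between the interferon receptors and STAT were higher in part. Of 13 listed, 12 had 1 FPKM or more in U-2 OS, and 4 of them were at least 2-fold higher with PcTF and 0 lower (median log2 difference 0.73), beside 12% higher and 5.59% lower over all genes compared. The transcription factor gene IRF1 had 6.69 FPKM in PcTF-transfected U-2 OS against 1.59 FPKM in mock. IRF9, the DNA-binding partner of the STATs, had 8.07 against 3.75 FPKM, and the kinase gene TYK2 had 2.36 against 1.01. In SK-N-SH 4 of 12 were higher and 0 lower (median 0.51), beside 5.79% and 2.69% of all genes, with IRF1 at 4.34 FPKM with PcTF against 1.09 in mock. In K562 0 of 12 were 2-fold apart in either direction, beside 28.6% higher and 11.7% lower over all genes. The median there was 0.43, near the 0.37 of all genes.

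Of the nucleic acid sensing and NF-kB genes, 10 of 18 were at least 2-fold higher with PcTF in U-2 OS and 0 lower (median 1.08), beside 12% and 5.59% of all genes. DDX58 and IFIH1, the cytosolic RNA sensors RIG-I and MDA5, had 324 and 239 FPKM with PcTF against 56.7 and 49.9 FPKM in mock. The kinase gene IKBKE had 5.78 FPKM against 1.43, and the cytokine gene IL1A had 4.97 against 0.376. In SK-N-SH 10 of 17 were higher and 0 lower (median 1.25), beside 5.79% and 2.69% of all genes, with IL1B at 10.3 FPKM against 0.149 and IFIH1 at 27.6 against 4.72. In K562 3 of 13 were higher and 1 lower (median 0.20), no more than the 28.6% and 11.7% of all genes and their median of 0.37, and the lower one, TNFAIP3, is an inhibitor of NF-kB, at 2.14 FPKM against 6.57.

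In the stable lines, where the 4 chemokine genes were at or near 0, most of these genes had 1 FPKM or more in either line. Of the receptor-to-STAT genes, 9 of 13 were higher in U2OS-PcTF than in U2OS-dTF and 0 lower (median 1.63). Of the sensing and NF-kB genes, 9 of 17 were higher and 2 lower (median 1.01). Over all genes compared, 37% were higher and 13.5% lower, with a median of 0.58. IFNAR1 and IFNAR2, the type I interferon receptor genes, had 19.9 and 19.7 FPKM in U2OS-PcTF against 2.87 and 2.84 FPKM in U2OS-dTF. In mock U-2 OS they had 18.0 and 18.3 FPKM, so U2OS-dTF was the group that stood apart. The 2 lower genes were the NF-kB subunit gene RELB, at 0.806 FPKM against 7.83, and NFKBIA, an inhibitor of NF-kB, at 32.2 FPKM in U2OS-PcTF against 673 FPKM in U2OS-dTF. Here too U2OS-dTF was far from mock U-2 OS, where RELB had 1.09 and NFKBIA 12 FPKM. Of 12 receptor-to-STAT genes, 8 were at least 2-fold lower in U2OS-dTF than in mock U-2 OS and 0 higher (median -1.37), beside 32% lower and 28.1% higher over all genes.

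There were 42 other chemokine genes in the tables. In U-2 OS 13 had 1 FPKM or more, of which 10 were at least 2-fold higher with PcTF and 3 lower (median 1.63), beside 12% and 5.59% of all genes. IL8, a neutrophil attractant, had 34.3 FPKM in PcTF-transfected U-2 OS against 0.682 in mock, and CXCL5, of the same kind, had 12.2 against 0.363. CCL20, an attractant of dendritic cells, had 31.2 FPKM against 1.93, and CCL2 and CCL3, monocyte attractants, had 64.9 and 11 FPKM against 4.52 and 0.691. CXCL14 was lower with PcTF, at 11.1 FPKM against 156 FPKM in mock. None of them reached the level of CXCL10, CXCL11 or CCL5 in PcTF-transfected U-2 OS.

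In SK-N-SH 8 of 10 other chemokine genes were higher with PcTF and 1 lower (median 3.33), beside 5.79% and 2.69% of all genes, led by neutrophil and monocyte attractants. IL8 had 163 FPKM in PcTF-transfected SK-N-SH against 1.03 FPKM in mock, and CCL2 had 1003 FPKM against 120.4 FPKM. CCL7 had 20.5 FPKM against 1.60, and CXCL2 had 34.1 against 0.385. In K562 3 of 5 were higher and 0 lower (median 1.84), beside 28.6% and 11.7% of all genes, all at low levels, such as the eosinophil attractant CCL26 with 4.52 FPKM against 1.19. Between the stable lines 4 of 10 were higher in U2OS-PcTF and 3 lower (median 0.27), beside 37% higher and 13.5% lower over all genes and their median of 0.58.

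Markers of immune cells were set beside these results, since such cells are known sources of CCL5. The 10 T-cell markers summed to 2.17 FPKM in PcTF-transfected U-2 OS, against 2.26 FPKM in mock U-2 OS, with CD3G at 0 in all 8 values, and the 7 natural killer cell markers were at 0 in both U-2 OS libraries. The 10 macrophage markers summed to 0.553 FPKM with PcTF and 0.108 FPKM in mock U-2 OS, with AIF1, MRC1, C1QA, C1QB and C1QC at 0 in all 8 values. In SK-N-SH the 3 sums were between 0 and 0.573 FPKM with PcTF and between 0.118 and 0.203 FPKM in mock. In K562, a line of the blood, the T-cell markers summed to 5.27 FPKM with PcTF and 14.3 FPKM in mock, nearly all of it CD3D (4.66 and 14.3 FPKM), and the macrophage markers, led by LYZ, to 26.8 and 13.2 FPKM. The natural killer cell markers summed to 3.56 FPKM with PcTF and 1.03 FPKM in mock K562, with NKG7 at 1.52 and 0.343 FPKM, PRF1 at 1.52 and 0.278 FPKM, and GNLY, KLRD1, NCR1 and GZMB at 0 in both. The part of these markers in the K562 results was not tested.

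The remaining facts of the libraries bear on how far these levels can be compared. Depth, estimated from the steps of low FPKM values, was between 4.28e+06 and 7.39e+06 reads in the 7 libraries with a column of their own, and 13246 to 16089 genes were detected. CBX8, part of which is in PcTF, was higher in all PcTF groups, at 6.43 FPKM against 0.610 in mock U-2 OS, 8.85 against 0.287 in mock SK-N-SH, 14.3 against 1.59 in mock K562 and 4.92 against 1.28 in U2OS-dTF. Markers of the labelled lines were present in part, with COL1A2 at 0 in U-2 OS and TH at 0 in SK-N-SH. K562 markers summed to 7299 FPKM in mock K562 and 22.5 FPKM in mock U-2 OS, of which HBE1 made up 19.1 FPKM. SK-N-SH markers summed to 127 FPKM in mock SK-N-SH and 1.76 FPKM in mock U-2 OS. U-2 OS markers summed to 314 FPKM in mock U-2 OS but 663 FPKM in mock SK-N-SH. Among them, RUNX2 had 9.13 FPKM in mock K562 against 7.30 FPKM in mock U-2 OS. The study's methods give 3 replicates for each stable line, while the labels give 2 and 1, and the labels were followed.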

How the data were processed

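RNA-seq levels were taken from 4 gene tables deposited for the series. According to the submitters' processing notes and the study's methods, single-end reads from amplified total RNA were checked with FastQC and aligned to hg19 with TopHat2 2.1.0 and Bowtie2. The authors used Cufflinks and Cuffdiff to make FPKM values, scaled to library depth and gene length, and no read counts per gene were used here. Of the value columns, 7 hold 1 library each and 1 holds the authors' mean of 3 libraries, from which a stable U2OS-PcTF mean was calculated as (3 x mean - transient library)/2. The authors' own fold changes, test statistics, p-values and q-values were not used. Samples were grouped by their labels, and 1 library without a column was not analysed here.

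The genes and lists were chosen with earlier results of these data known. A gene was called higher or lower at a 2-fold difference of FPKM + 0.1 with 1 FPKM or more in either group. With 1 library per condition no test across genes was run. Depth was estimated from single-exon genes, whose low FPKM values were whole multiples of 1 read within 3% of a whole number for 95.5% to 100% of values, with a fragment of 200 bp (SD 80 bp) assumed. Gene lengths for the 4 genes came from GENCODE and were rescaled so that the lower values, from 3 to 5 libraries per gene, came out near whole reads, and all estimates were then rounded. Intervals are exact (Clopper-Pearson) 95% binomial intervals of the read ratio and cover counting error only. The floor of 3 reads covers counting error in the library at 0 only. Folds set against it take the level of the other library as exact. Named genes were the 4 chemokine genes, all listed receptors, genes within 100 kb, the 5 nearest profiles of each gene, and up to 4 called genes of each list in a comparison with the largest difference. Some genes that this rule names are not reported here. Alternatives were pseudocounts of 1 and 0.01 FPKM, no filter, centring on the median gene, a 4-fold threshold and the 3-library mean. The scripts used Python 3.11.15, pandas 2.3.3, numpy 2.4.6, scipy 1.17.1 and matplotlib 3.10.9, and the calling and read estimation steps were tested on simulated data.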

Additional observations from a re-analysis of the deposited data

Results flagged for a closer look

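CXCL11 moved in opposite directions in different lines under the same contrast of PcTF with mock. Its log2 difference was 4.90 for U-2 OS and 2.99 for SK-N-SH, but -1.58 for K562, where 37 reads stood against 71. The difference between the lines was not tested, since each line has 1 library per condition. K562 was collected at an earlier time than the other lines.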

How the results depend on the processing

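In U-2 OS, 3 of the 4 genes stayed at least 2-fold higher with PcTF under every alternative, and CXCL9 fell to a log2 difference of 0.84 with a pseudocount of 1 FPKM. Shares of all genes under the alternatives are not given here, so the counts that follow are set only beside those of the main settings. The count of higher genes in U-2 OS was 3 at a 4-fold threshold, and that in SK-N-SH was 2. In K562 the count of higher genes was 2 without a filter on low values, CCL5 being the added gene, and the count of lower genes was 0 at the 4-fold threshold. Between the stable lines 0 genes were called, against 3 without the filter, where all levels were below the 3-read floor, and 3 with the deposited mean of 3 libraries, which includes the transient library. Of 64 values of single genes under these alternatives, 40 moved by less than the margin of their counting interval on either side (or 0.5 on the log2 scale where there was none), 24 moved by more and 0 reversed. The values that moved were those of genes at or near 0, which the pseudocount sets, and those that took in the transient library. No paired analysis was possible because each condition has 1 library, apart from the stable U2OS-PcTF pair, which shares a column. Leaving out a library was not possible for the same reason. In estimated reads, CXCL9 had at most 22 in any library with a column of its own, the SK-N-SH values at most 16, and the K562 values other than CXCL11 at most 8, and all 4 genes were at 0 in U2OS-dTF.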

Other observations

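Of 9 other chemokine genes with 1 FPKM or more in U2OS-dTF or mock U-2 OS, 3 were at least 2-fold higher in U2OS-dTF and 4 lower, beside 28.1% and 32% of all genes compared. CCL26 had 27.0 FPKM in U2OS-dTF against 0.572 FPKM in mock, CCL4 had 7.08 against 0.884 and CCL3 had 3.79 against 0.691, while CCL2 was at 0 in U2OS-dTF against 4.52 FPKM in mock. The other lower genes were CXCL14, at 27.3 against 156 FPKM, CCL27, at 1.42 against 5.92 FPKM, and CXCL12, at 0 against 1.09 FPKM. CCL5, another attractant of monocytes and T cells, was at 0 in U2OS-dTF, where CCL3 and CCL4 were detected. In the stable U2OS-PcTF mean CCL3 was at 0, CCL4 at 0.0741 and CCL26 at 0.299 FPKM.

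Chromatin repressor genes were not 2-fold apart in U-2 OS or SK-N-SH, with 0 of 7 called in either direction (medians -0.27 and 0.20). Over all genes 12% were higher and 5.59% lower in U-2 OS, and 5.79% and 2.69% in SK-N-SH. With 7 genes, a count of 0 cannot be told apart from these shares. Between the stable lines 1 was higher in U2OS-PcTF, the DNA methyltransferase gene DNMT3A (12 against 2.58 FPKM in U2OS-dTF), and 3 were lower, among them EED, a subunit of the complex that places H3K27me3 (13.1 against 75.9 FPKM), beside 37% higher and 13.5% lower over all genes. In mock U-2 OS EED had 6.57 FPKM and DNMT3A 8.23 FPKM, and 5 of the 7 were higher in U2OS-dTF than in mock and 1 lower, beside 28.1% and 32% of all genes. In K562 1 of the 7 was higher with PcTF and 0 lower, beside 28.6% and 11.7% of all genes. The higher gene was DNMT3B, at 27.9 FPKM against 8.36 FPKM in mock.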
